A study of Mus musculus with 4 samples.

Results

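The 62 genes described here code for the enzymes that make, break down and act on cyclic AMP (cAMP) and cyclic GMP (cGMP), together with the proteins that hold these enzymes in place. They were taken from the 32285 genes of the count matrices by symbol alone, and no measured value was used. The set holds 10 adenylyl cyclases (Adcy), 25 phosphodiesterases (Pde), 6 subunits of protein kinase A (PKA), 2 cGMP-dependent protein kinases (Prkg1 and Prkg2), 4 subunits of soluble guanylyl cyclase (Gucy1) and 15 A-kinase anchoring proteins (Akap). Genes of the Adcyap group, Pde4dip and symbols ending in os were left out. Pde12 is in the set by its name, although its product acts on oligoadenylates and not on cyclic nucleotides.

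Adenylyl cyclases are membrane enzymes that make cAMP when a receptor activates the G protein Gs, and in the pituitary the releasing hormones of growth hormone and corticotropin act on their target cells in this way, while dopamine lowers cAMP in lactotropes. cAMP binds the regulatory subunits of PKA and frees the catalytic subunits, which phosphorylate transcription factors such as CREB. Soluble guanylyl cyclase is a dimer that answers to nitric oxide and makes cGMP, the activator of the cGMP-dependent kinases. Phosphodiesterases hydrolyse both messengers, with families that prefer cAMP, cGMP or take either, and anchoring proteins tether PKA to membranes and organelles.

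The genes were measured by single-nucleus RNA sequencing of pituitary glands of wild-type UM-HET3 mice, a genetically heterogeneous stock. There were 4 libraries, 1 for each labelled sex at a labelled age of 5 or of 22 months (in the order 5-month male, 5-month female, 22-month male, 22-month female), and each held nuclei pooled from 3 snap-frozen glands. No treatment or allele distinguishes the groups. No group has a replicate library, so 1 pool stands for each label and the p-values do not measure the spread between animals. Values for the 4 libraries are given throughout in the order in which they are named here.

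The labels of 2 libraries went against the sex chromosomes. Xist, the RNA of the inactive X chromosome, was counted in 0.112%, 0.212%, 97.3% and 85.8% of nuclei, and genes of the Y chromosome in 85.6%, 84.3%, 0.203% and 0.304%. The libraries labelled 5-month females and 22-month males therefore do not match their labelled sex. Every library is named below by its label, and labelled age cannot be told apart from the sex chromosomes. If the labels of these 2 libraries had been exchanged, the comparison of labelled age would be one of sex and that of labelled sex one of age.

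After filtering, 7156, 6597, 10355 and 7235 nuclei remained, with medians of 3460, 3643, 4141 and 4745 counts of unique transcripts per nucleus. They fell into 25 clusters, which were made without the 62 genes, and 22 clusters were named from marker genes. The 11 classes used here held between 241 nuclei (pituicyte-like) and 12607 nuclei (lactotrope-like), and the count sum of a class in a library ranged from 89758 to 22400944. In each library between 68 and 97 of the barcodes also occurred in another library. Hormone transcripts were counted in every class: Prl, the prolactin gene of lactotropes, stood at 10670, 4961, 68900 and 25080 CPM (counts scaled to one common total) in stem-like nuclei, against 38720, 18550, 90310 and 56270 CPM in lactotrope-like nuclei. Levels are given below as CPM of the class sum. Since a longer gene yields more nuclear counts, levels are compared between classes and libraries within a gene, never between genes.

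Each class was compared with the mean of the other 10 classes by edgeR's quasi-likelihood test over the 4 libraries, and a gene was called higher at a Benjamini-Hochberg adjusted p under 0.05 and a log2 fold of 1 or more. Of the 62 genes, 49 had enough counts to be tested. In at least 1 class, 35 of them were called higher, beside 49.6% of all genes tested. A gene that passes the filter through 1 rich class tends to be called there, so this count describes the set and supports nothing further. Called members numbered 19 in fibroblast and mural-like nuclei (13% of all genes), 12 in melanotrope-like (9.7%), 11 each in stem-like (14.2%), somatotrope-like (8.64%) and thyrotrope-like nuclei (7.79%), and 8 each in lactotrope-like (8.09%), gonadotrope-like (10.9%) and endothelial-like nuclei (12.5%). There were 6 in corticotrope-like (8.33%), 4 in pituicyte-like (10.6%) and 3 in macrophage-like nuclei (10.4%). The median log2 fold of the 49 members was 0.85 in fibroblast and mural-like nuclei and -0.69 in pituicyte-like nuclei, where that of all genes was -0.0094 and -0.035.

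**Figure D1:**
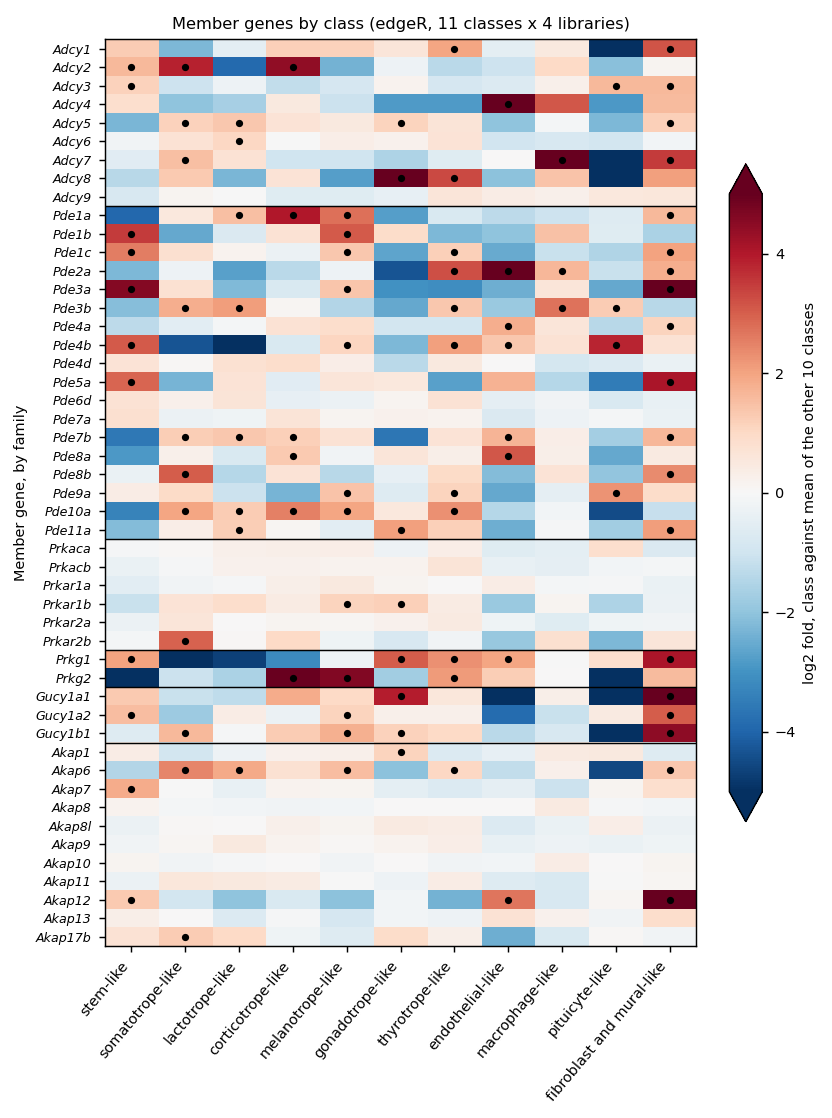
Heat map of the log2 fold of the 49 tested members (vertical axis) in 11 classes (horizontal axis), each against the mean of the other classes; the colour scale is limited to 5 in either direction and a black dot marks a gene called higher. The column of fibroblast and mural-like nuclei holds 19 dots and that of macrophage-like nuclei 3.

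Among the adenylyl cyclases, Adcy2 was called in corticotrope-like, somatotrope-like and stem-like nuclei, Adcy7 in macrophage-like, fibroblast and mural-like and somatotrope-like nuclei, and Adcy4 in endothelial-like nuclei. Adcy8 was called in gonadotrope-like and thyrotrope-like nuclei, and Adcy1 in fibroblast and mural-like and thyrotrope-like nuclei. Adcy2 (ENSMUSG00000021536, mm10 chromosome 13, 68620043 to 68999541), a cyclase that Gs and G-protein beta-gamma subunits activate together, stood at 480, 581, 555 and 830.5 CPM in corticotrope-like nuclei. In somatotrope-like nuclei it stood at 337, 390, 436 and 334 CPM. In lactotrope-like nuclei it was at 3.00, 3.41, 3.57 and 2.55 CPM, and in melanotrope-like nuclei at 3.81, 1.03, 12.1 and 15.2 CPM. The ranges of corticotrope-like and somatotrope-like nuclei did not overlap with those of any other class. The log2 fold was 4.44 (SE 0.25) in corticotrope-like nuclei and 3.85 (SE 0.24) in somatotrope-like nuclei. At least 1 count of Adcy2 was found in 67.7% to 82.4% of corticotrope-like nuclei and in 0.884% to 1.56% of lactotrope-like nuclei, at median depths of 3322 to 5362 and 3184 to 5011 counts.

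Adcy8 (ENSMUSG00000022376, chromosome 15, 64697084 to 64922296), a cyclase stimulated by calcium and calmodulin, was called in gonadotrope-like nuclei at a log2 fold of 6.49 (SE 0.46). Its levels there were 11.7, 4.38, 306.5 and 651 CPM, so the libraries labelled 22-month were far above the others, and this difference is taken up below. It was also called in thyrotrope-like nuclei, at 8.39, 21.5, 24.6 and 26.6 CPM and a log2 fold of 3.30 (SE 0.88). In lactotrope-like nuclei it stayed between 0.44 and 0.818 CPM.

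Adcy7, the cyclase of blood cells, marked macrophage-like nuclei with 160, 124, 158 and 112 CPM and a log2 fold of 5.84 (SE 0.29). Adcy4, known from the endothelium, was at 33.4, 24.0, 17.8 and 31.3 CPM in endothelial-like nuclei and at a mean of at most 1.87 CPM in any other class, with a log2 fold of 7.28 (SE 0.57). A single count stood for 11.1 CPM in endothelial-like nuclei of the library labelled 5-month males, so each of these values rests on few counts. Adcy3, a calcium-stimulated cyclase best known from olfactory cilia, was called in pituicyte-like nuclei (log2 fold 1.64, SE 0.30), fibroblast and mural-like nuclei (1.61, SE 0.28) and stem-like nuclei (1.17, SE 0.22).

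The calcium-inhibited cyclases Adcy5 and Adcy6 were spread over the hormone classes. Adcy5 was at 83.9, 88.7, 117 and 138 CPM in lactotrope-like nuclei (log2 fold 1.36, SE 0.10) and at 6.27, 7.53, 15.9 and 7.38 CPM in stem-like nuclei. Its means in lactotrope-like, gonadotrope-like, fibroblast and mural-like and somatotrope-like nuclei ran from 107 ± 25.2 down to 85.6 ± 17.1 CPM (SD, n = 4), and neighbours in this order lay within 1 SD of each other. Adcy6 was called in lactotrope-like nuclei alone, with 106, 87.3, 89.5 and 90.2 CPM and a log2 fold of 1.02 (SE 0.08). Adcy9 was called in no class, with means from 56.6 to 142 CPM. Adcy10, the soluble cyclase that bicarbonate stimulates, never exceeded 12.2 CPM and was not tested.

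Soluble guanylyl cyclase was richest in fibroblast and mural-like nuclei for each of the 3 subunits that were tested. Gucy1a1, an alpha subunit, stood there at 73.4, 77.4, 106 and 127 CPM (log2 fold 6.06, SE 0.46). Gucy1b1, the beta subunit that carries the haem, stood at 81.5, 140, 119 and 224 CPM (4.47, SE 0.29), and Gucy1a2, the other alpha subunit, at 310, 330, 554 and 739 CPM (3.04, SE 0.19). In gonadotrope-like nuclei Gucy1a1 was at 18.3, 19.0, 44.1 and 30.1 CPM (3.92, SE 0.50) and Gucy1b1 at 22.0, 10.2, 19.6 and 26.8 CPM (1.15, SE 0.44). Among the remaining classes, no library had more than 25.9 CPM of Gucy1a1. Melanotrope-like nuclei had calls of Gucy1b1 (1.77, SE 0.35) and Gucy1a2 (1.11, SE 0.20) without one of Gucy1a1. Endothelial-like nuclei had no count of Gucy1a1 in the 4 libraries together, which allows a level of up to 3.01 CPM (3 counts of the summed total, counting error only). Gucy1b2 had 33 counts in all and was not tested.

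The kinases that cGMP activates were called mostly in different classes. Prkg1 (ENSMUSG00000052920, chromosome 19, 30564489 to 31765033), the kinase of smooth muscle relaxation, stood at 3033, 3075, 4100 and 5879 CPM in fibroblast and mural-like nuclei. In gonadotrope-like nuclei it reached 1515, 3136, 1835 and 3052 CPM, against 14.4, 24.5, 11 and 15.2 CPM in lactotrope-like and 3.34, 7.48, 5.63 and 8.61 CPM in somatotrope-like nuclei. The log2 folds were 4.09 (SE 0.17) in fibroblast and mural-like and 3.04 (SE 0.18) in gonadotrope-like nuclei. It was also called in thyrotrope-like (2.30, SE 0.19), stem-like (2.01, SE 0.20) and endothelial-like nuclei (1.98, SE 0.21). At least 1 count was found in 80% to 98.05% of gonadotrope-like nuclei and 3.06% to 4.74% of lactotrope-like nuclei.

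Prkg2 (ENSMUSG00000029334, chromosome 5, 98929773 to 99037351), the membrane-bound kinase, was called in both classes that express the hormone precursor gene Pomc. It was at 28.0, 25.7, 20.7 and 19.4 CPM in corticotrope-like nuclei (log2 fold 4.95, SE 0.39) and at 21.6, 12.9, 31.4 and 9.29 CPM in melanotrope-like nuclei (4.62, SE 0.34). The ranges of these classes overlapped. In thyrotrope-like nuclei it was called at a mean of 3.94 ± 3.13 CPM (SD, n = 4), and in stem-like and pituicyte-like nuclei no count was found, which allows up to 0.602 and 2.52 CPM.

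**Figure D2:**
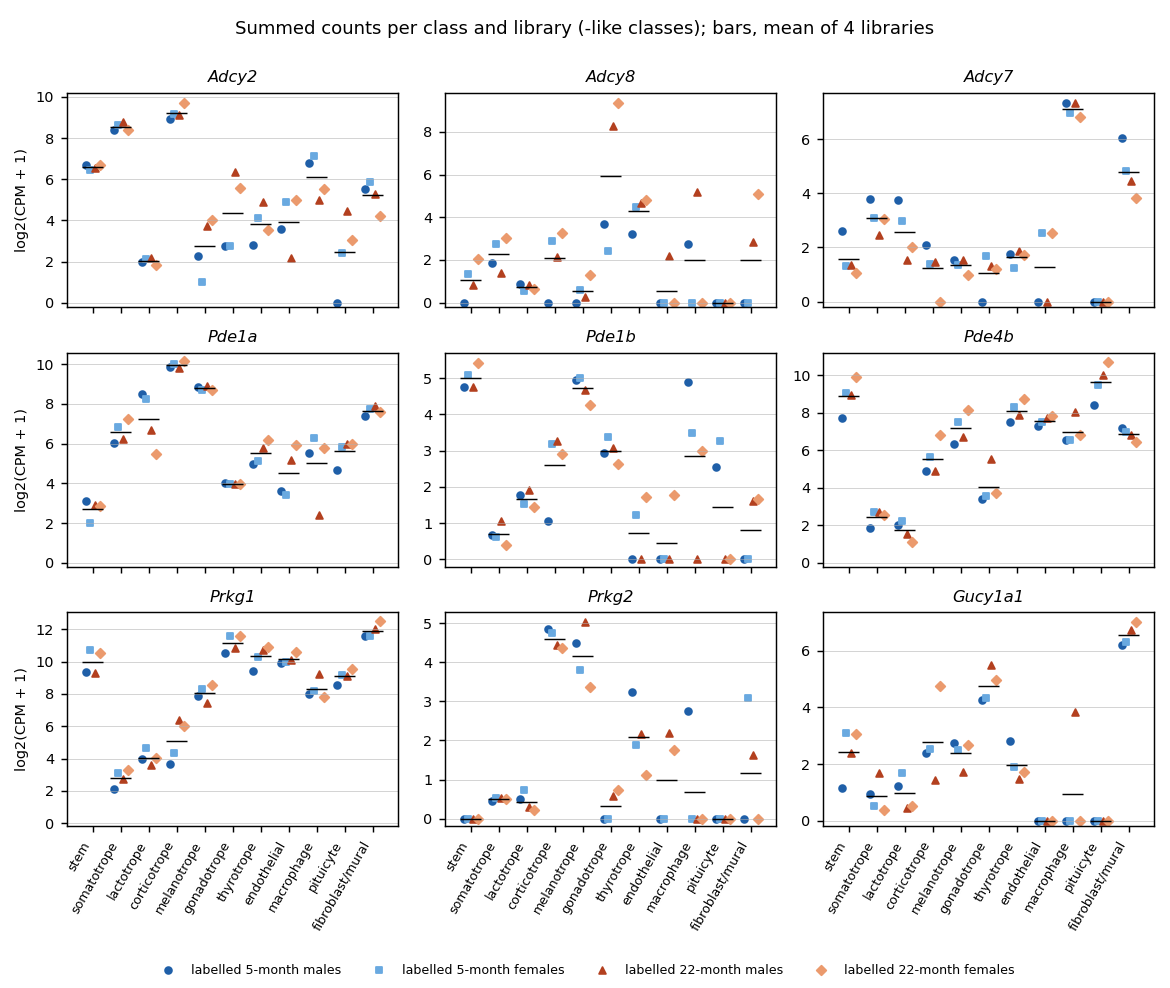
Levels of 9 members as log2(CPM + 1) (vertical axis) in each class (horizontal axis), with 1 point per library and a bar at the mean of the 4 log2 values. Adcy2 stands high in corticotrope-like and somatotrope-like nuclei, Prkg1 in fibroblast and mural-like and gonadotrope-like nuclei, and Prkg2 in corticotrope-like and melanotrope-like nuclei; Adcy8 in gonadotrope-like nuclei splits into a low and a high pair of libraries.

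The phosphodiesterases of the Pde1 family, which calcium and calmodulin activate, were divided among the classes. Pde1a (ENSMUSG00000059173, chromosome 2, 79834453 to 80129458) was at 922, 1017, 882 and 1152 CPM in corticotrope-like nuclei (log2 fold 4.00, SE 0.21) and at 460, 422, 485 and 410 CPM in melanotrope-like nuclei (2.76, SE 0.23). In stem-like nuclei it was at 7.52, 3.01, 6.61 and 6.32 CPM, and in gonadotrope-like nuclei at 15.4, 14.6, 14.7 and 14.4 CPM. Pde1b showed 26.3, 33.2, 26.1 and 42.1 CPM in stem-like nuclei (3.50, SE 0.30) and 29.9, 31.4, 24.8 and 18.1 CPM in melanotrope-like nuclei (3.08, SE 0.27), and these ranges overlapped. Its mean was 0.64 CPM in somatotrope-like nuclei. Pde1c was richest in stem-like nuclei, with 640, 701, 513 and 530 CPM (2.55, SE 0.16).

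Among the phosphodiesterases that hydrolyse both messengers, Pde2a, which cGMP stimulates, was at 145, 316, 146 and 103 CPM in endothelial-like nuclei (5.57, SE 0.31). It was at 38.4, 41.7, 37.7 and 34.7 CPM in thyrotrope-like nuclei (3.23, SE 0.32). Its call in macrophage-like nuclei (1.65, SE 0.62, adjusted p = 0.0456) was lost without the 5-month library labelled male (adjusted p = 0.0595), 5-month females (0.365) or 22-month males (0.0904).

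Of the enzymes that cGMP inhibits, Pde3a was highest in fibroblast and mural-like nuclei and Pde3b in macrophage-like nuclei. Pde3a, known from heart and vascular muscle, stood at 265, 217, 260 and 482 CPM in fibroblast and mural-like nuclei (6.83, SE 0.25) and at 87.7, 70.8, 66.5 and 56.9 CPM in stem-like nuclei (4.59, SE 0.29). Pde3b, the enzyme through which insulin lowers cAMP in fat and liver, stood at 315, 288, 417 and 380 CPM in macrophage-like nuclei (2.71, SE 0.18). In lactotrope-like nuclei Pde3b was at 177, 188, 216 and 270 CPM (2.10, SE 0.14), and in stem-like nuclei at 10.0, 9.04, 19.1 and 15.8 CPM. Its call in pituicyte-like nuclei (1.27, SE 0.21) fell under a log2 fold of 1 without the library labelled 5-month females (0.95, adjusted p = 0.00357).

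Pde10a, an enzyme best known from the striatum, was called in corticotrope-like (2.51, SE 0.23), thyrotrope-like (2.29, SE 0.24), melanotrope-like (1.98, SE 0.24), somatotrope-like (1.97, SE 0.24) and lactotrope-like nuclei (1.26, SE 0.26). Its levels were 1506, 2563, 2486 and 2912 CPM in corticotrope-like nuclei and 60.1, 13.6, 94.1 and 46.4 CPM in stem-like nuclei. The ranges of the first 4 of these classes overlapped. Pde11a was called in gonadotrope-like nuclei (2.05, SE 0.41) at 11.7, 48.9, 8.34 and 14.4 CPM, where 1 library stood well above the others.

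The cAMP-specific Pde4 genes differed from each other in where they stood. Pde4b (ENSMUSG00000028525, chromosome 4, 102087543 to 102607259), the target of drugs against inflammation in blood cells, was at 334, 718, 1016 and 1669 CPM in pituicyte-like nuclei (3.80, SE 0.22). It was at 211, 529, 493 and 952 CPM in stem-like nuclei (3.06, SE 0.22), and at 3.00, 3.74, 1.96 and 1.17 CPM in lactotrope-like nuclei. At least 1 count was found in 24.5% to 69.9% of stem-like nuclei and 0.566% to 1.29% of lactotrope-like nuclei. Pde4d was called in no class, with means from 398 CPM in gonadotrope-like to 1574 CPM in corticotrope-like nuclei. Pde4a was called in endothelial-like (1.82, SE 0.26) and fibroblast and mural-like nuclei (1.09, SE 0.26), at means of 75.1 ± 24.4 and 48.9 ± 7.54 CPM (SD, n = 4). Pde4c had too few counts to be tested, and its highest mean, 23.3 ± 13.4 CPM, was that of fibroblast and mural-like nuclei.

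Of the other cAMP-specific enzymes, Pde8b, which is active in steroid-making and thyroid cells, was at 108, 96.5, 80.0 and 145 CPM in somatotrope-like nuclei (3.02, SE 0.18), against 9.13, 12.6, 3.62 and 4.84 CPM in lactotrope-like nuclei. Pde8a was at 279, 369, 298 and 363 CPM in endothelial-like nuclei (3.12, SE 0.16), all above the 119 CPM that no other class exceeded in any library. Pde7b was called in 5 classes, at folds from 1.18 in corticotrope-like to 1.72 in endothelial-like nuclei. Pde7a was called in none.

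Of the enzymes that prefer cGMP, Pde5a, the target of sildenafil, was at 77.4, 180, 194 and 283 CPM in fibroblast and mural-like nuclei (4.07, SE 0.43) and at 104, 94.9, 77.8 and 99.0 CPM in stem-like nuclei (2.91, SE 0.41). Pde9a was at 82.3, 43.0, 66.9 and 59.0 CPM in pituicyte-like nuclei (2.26, SE 0.30), and was also called in melanotrope-like (1.41, SE 0.22) and thyrotrope-like nuclei (1.12, SE 0.27). Of the Pde6 genes, which are in the set by their names, only Pde6d was tested. It was called in no class, with means from 38.7 to 98.2 CPM, and the highest level of the other Pde6 genes in any class and library was 14 CPM.

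Of the 6 PKA subunits, 4 were called in no class. Neither catalytic subunit was called in any class: Prkaca had means from 18.4 to 54.4 CPM and Prkacb from 54.7 to 103 CPM. The regulatory subunits Prkar1a (44.3 to 87.8 CPM) and Prkar2a (34.8 to 62.1 CPM) were not called either. Prkar1b, a regulatory subunit known from the brain, was called in gonadotrope-like nuclei at 80.7, 78.2, 77.5 and 102 CPM (1.18, SE 0.14) and in melanotrope-like nuclei at 61.6, 77.8, 70.6 and 96.3 CPM (1.13, SE 0.13). Its mean was 11.7 ± 8.89 CPM (SD, n = 4) in endothelial-like nuclei.

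Prkar2b (ENSMUSG00000002997, chromosome 12, 31958476 to 32061296), the regulatory subunit of fat and brain, was called in somatotrope-like nuclei. It stood at 133, 120, 126 and 132 CPM in somatotrope-like nuclei, and the highest value of any other class and library was 53.9 CPM. The log2 fold was 2.96 (SE 0.14). Lactotrope-like nuclei had 19.9, 21.8, 22.7 and 25.9 CPM.

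**Figure D3:**
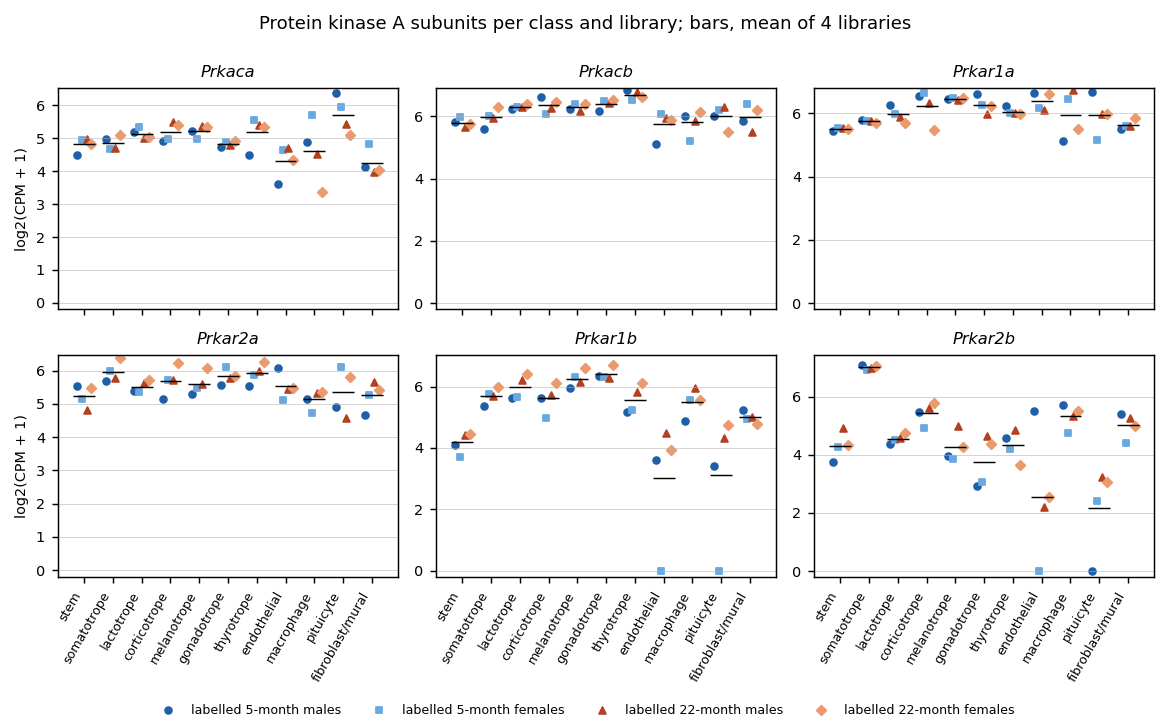
Levels of the 6 PKA subunits as log2(CPM + 1) (vertical axis) in each class (horizontal axis), with 1 point per library and a bar at the mean of the 4 log2 values. Prkar2b in somatotrope-like nuclei, at 120 to 133 CPM, stands apart from its other classes, while Prkaca, Prkacb, Prkar1a and Prkar2a were called in no class.

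The promoters of the set were searched for the cAMP response element, the DNA sequence to which CREB binds. Of the 62 members, 51 matched the RefSeq promoter table (GRCm38.p6), and the 250 bases before each start site were read on both strands. The 8-base element TGACGTCA was present in 1 of the 51, Prkar1a (1.96%), beside 1.77% of all 27025 genes. Its 5-base core, TGACG or CGTCA, which the 8-base element also contains, was present in 14 of the 51 (27.5%) beside 19.8% of all genes. Members have more annotated start sites (1.86 windows per gene against 1.22), and per window the share was 16.8% of 95 beside 17.8% of 32851. A window of the regulatory subunit Prkar1a and one of the catalytic subunit Prkaca are shown as examples from PKA. The PKA subunits Prkacb and Prkar1b also held the core, and so did another window of Prkar1a, which is not shown. The windows shown lie at chr11:109650699-109650920 and chr8:83972728-83972977 on the plus strand, and capitals mark the element or its core. The Prkar1a window is 222 bases long here, since bases annotated as untranslated were left out. These matches describe the letters of the windows and are no measure of binding.
Prkar1a: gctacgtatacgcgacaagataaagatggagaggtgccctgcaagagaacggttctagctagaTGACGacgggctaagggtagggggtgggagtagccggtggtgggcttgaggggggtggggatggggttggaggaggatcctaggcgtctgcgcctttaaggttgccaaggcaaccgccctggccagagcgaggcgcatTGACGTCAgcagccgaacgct
Prkaca: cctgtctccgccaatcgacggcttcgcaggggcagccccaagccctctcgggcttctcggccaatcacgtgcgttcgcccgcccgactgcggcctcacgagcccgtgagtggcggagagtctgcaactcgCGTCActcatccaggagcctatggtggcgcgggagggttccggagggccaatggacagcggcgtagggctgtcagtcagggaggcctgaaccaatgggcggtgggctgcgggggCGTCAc

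Of the 15 anchoring proteins, 11 were tested and 5 called higher in at least 1 class, beside 49.6% of all genes. Akap12, which scaffolds PKA at the cell membrane, was at 110, 232, 187 and 143 CPM in fibroblast and mural-like nuclei (5.02, SE 0.23) and at 55.7, 57.5, 42.6 and 26.5 CPM in endothelial-like nuclei (2.66, SE 0.40). Akap6, the anchor of the nuclear envelope in muscle and nerve, was at 23.6, 52.2, 66.6 and 114 CPM in somatotrope-like nuclei (2.43, SE 0.23) and at 26.4, 45.9, 43.6 and 63.7 CPM in lactotrope-like nuclei (1.89, SE 0.24). Akap7 was called in stem-like nuclei alone, at 179, 243, 272 and 303 CPM (1.84, SE 0.12). Akap1 and Akap17b were each called in 1 class, gonadotrope-like (1.10) and somatotrope-like nuclei (1.27). Akap8, Akap8l, Akap9, Akap10, Akap11 and Akap13 were called in none, and Akap4, a sperm protein, had no count in any library.

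Melanotrope-like and corticotrope-like nuclei, which share Pomc, were compared directly in the same fit. Melanotrope-like nuclei had 7 of 49 members higher (5.2% of all genes) and 6 lower (5.59%). The 3 largest differences in each direction were in Adcy2 (log2 difference -6.20, SE 0.51), Pde9a (3.40, SE 0.46), Prkg1 (2.67, SE 0.37), Pde1b (2.14, SE 0.44), Pde8b (-1.89, SE 0.41) and Pde3b (-1.39, SE 0.26), and each had the same direction in 4 of 4 libraries. Prkg1 was at 229, 321, 171 and 376 CPM in melanotrope-like and 11.8, 19.3, 81.1 and 64.7 CPM in corticotrope-like nuclei.

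Lactotrope-like nuclei had 4 of 49 members higher than somatotrope-like nuclei (6.34% of all genes) and 8 lower (7.42%). The 3 largest in each direction were Adcy2 (-7.04, SE 0.50), Pde8b (-4.04, SE 0.28), Adcy8 (-3.28, SE 0.83), Pde5a (2.75, SE 0.55), Gucy1a2 (2.0, SE 0.27) and Pde1b (1.66, SE 0.41). Each had 1 direction in 4 of 4 libraries, except Pde5a, which was higher in 3. Pde5a was counted in 17.3% and 13.1% of lactotrope-like nuclei of the 5-month libraries, against 0.920% and 1.73% of somatotrope-like ones. In the 22-month libraries the shares were 1.87% and 1.64% against 0.894% and 1.62%. Median depths were 3184 to 5011 counts in lactotrope-like and 3690 to 4433 in somatotrope-like nuclei. Prkar2b was lower by 2.62 on the log2 scale (SE 0.21), while Prkg1, low in both classes, was 1.31 higher (SE 0.34).

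Genes around these enzymes, which are not members, were read from lists of the pathway. Of 5 receptors tested that act on the cyclases in the pituitary, 3 were called higher in melanotrope-like nuclei, beside 9.7% of all genes: Sstr1 (4.59, SE 0.35), the dopamine receptor gene Drd2 (4.49, SE 0.18) and Crhr1 (3.95, SE 0.31). The other two, Ghrhr (-1.09, SE 0.28) and Adcyap1r1 (-1.65, SE 0.61), were lower there. Crhr1, the receptor of corticotropin-releasing hormone, was called at 7.24 (SE 0.23) in corticotrope-like nuclei, where Adcy2 was high. Ghrhr, the receptor of growth hormone-releasing hormone, was called at 4.65 (SE 0.14) in somatotrope-like nuclei, where Adcy2, Pde8b and Prkar2b were high. In gonadotrope-like nuclei Adcyap1r1 (4.62, SE 0.26) and the natriuretic peptide receptor gene Npr3 (5.03, SE 0.29) were called, and in endothelial-like nuclei Npr1 (5.51, SE 0.33) and Nos3 (4.43, SE 0.39), a nitric oxide synthase. Of 9 G proteins and regulators, 6 were called higher in melanotrope-like nuclei (beside the same 9.7% of all genes), with Gnal at 4.01 (SE 0.30) and Gnai1 at 3.09 (SE 0.22), and 1 of 3 PKA inhibitors, Pkib (4.80, SE 0.19). Crhr1 and Ghrhr were among the marker genes by which these classes were named, and so was Drd2 for lactotrope-like nuclei.

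Differences between the libraries labelled 22-month and 5-month were tested in 6 classes with labelled sex as a term, and a gene was called at an adjusted p under 0.05. With both labels in the model, 1 residual degree of freedom is left, that of their interaction. To this edgeR adds prior degrees of freedom, for the spread it borrows from all genes. Their median was infinite in corticotrope-like nuclei and 146 in stem-like nuclei. In the other classes it ran from 7.17 (gonadotrope-like) to 11.8 (melanotrope-like). Small p-values therefore rest mostly on this borrowed spread and are not comparable between classes. Fits below without 1 library also lacked the term for the other label, so a lost call cannot be laid on that library alone. The 22-month libraries were also the deeper ones, held Xist and had almost no signal of the Y chromosome, and the part of none of these in the differences was tested.

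**Figure D4:**
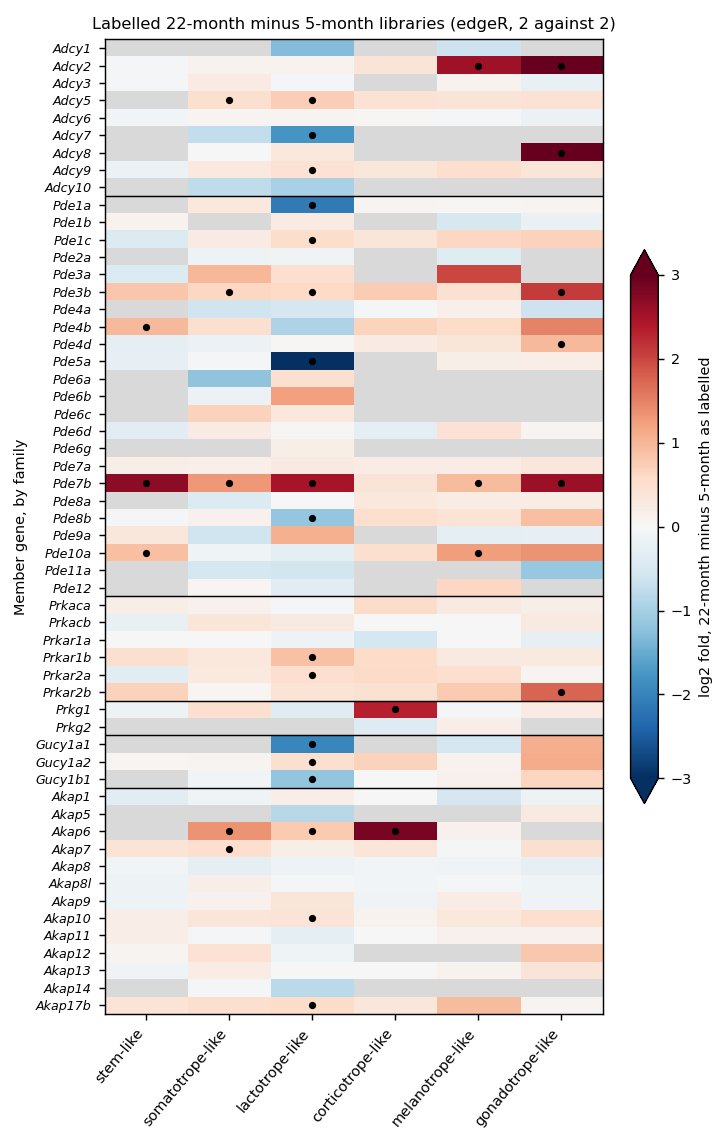
Heat map of the log2 fold of members (vertical axis) between libraries labelled 22-month and 5-month in 6 classes (horizontal axis); the colour scale is limited to 3 in either direction, grey marks a gene not tested in that class and a black dot a call. Lactotrope-like nuclei hold 17 dots, and in the other 5 classes every dot is on a higher level in the 22-month libraries.

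Lactotrope-like nuclei had the most calls, 17 of 55 members tested beside 23.7% of all genes, of which 11 were higher and 6 lower in the 22-month libraries. The members' median log2 fold was 0.044 and that of all genes -0.022. Pde7b (ENSMUSG00000019990, chromosome 10, 20398004 to 20725078), a cAMP-specific enzyme, stood at 230, 328, 1192 and 1477 CPM. Pde5a (ENSMUSG00000053965, chromosome 3, 122728947 to 122859374), the cGMP-specific one, went the other way, at 60.9, 46.3, 4.11 and 3.24 CPM. For both genes the libraries labelled 5-month and 22-month did not overlap. Pde7b was higher by 2.46 on the log2 scale (SE 0.15, adjusted p = 1.62e-05) and Pde5a differed by -3.67 (SE 0.17, adjusted p = 2.68e-06), and both calls held in all 9 alternative analyses.

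The share of lactotrope-like nuclei with at least 1 count moved in the same way. Pde7b was counted in 40.4%, 50.9%, 92% and 94.7% of them, and after every nucleus was thinned to 2000 counts, in 30.3%, 39.8%, 80.7% and 85.6%. Pde5a was counted in 17.3%, 13.1%, 1.87% and 1.64%, and after thinning in 10.8%, 8.15%, 0.753% and 0.606%. In somatotrope-like nuclei, Pde5a was counted in 0.894% to 1.73% (0.451% to 0.741% after thinning) at median depths of 3690 to 4433 counts, so the shares of the 22-month libraries lay near that level. Thinning left 1936, 2145, 4455 and 3268 lactotrope-like nuclei, and the 95% intervals of the unthinned shares (Clopper-Pearson, counting error only) of the 5-month and 22-month libraries did not overlap for either gene.

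Pde1a fell with Pde5a in these nuclei, from 366 and 307 CPM to 104 and 42.9 CPM (log2 fold -2.13, SE 0.22, adjusted p = 0.000314), with the pairs of libraries apart. Its call was lost without the 5-month library labelled male (-1.86, adjusted p = 0.0534). Prkar1b was at 48.7, 49.6, 73.9 and 84.9 CPM (0.88, SE 0.12) and Adcy5 at 83.9, 88.7, 117 and 138 CPM (0.75, SE 0.11). Akap6 was called at 0.78 (SE 0.13), although its 5-month and 22-month libraries overlapped. Without 1 library it ranged from 0.42 (without 5-month males) and 0.45 (without 22-month females) to 1.25 (without 5-month females), and it was called in none of the 4 fits (adjusted p = 0.0531 to 0.509). Pde3b (0.60, SE 0.12) and Pde1c (0.54, SE 0.11) were called higher, and Pde8b (-1.17, SE 0.26) and Gucy1b1 (-1.18, SE 0.26) lower. Soluble guanylyl cyclase was split: Gucy1a2 was called higher (0.47, SE 0.14) while Gucy1a1, at 1.36, 2.20, 0.357 and 0.425 CPM, was called lower (-1.95, SE 0.55). Prkar2a was called at 0.50 (SE 0.12), and the remaining calls were Adcy9, Akap10 and Akap17b higher and Adcy7 lower. The calls of Gucy1a2, Gucy1a1, Pde8b, Prkar2a, Adcy9, Akap10 and Akap17b each held in only 3 of the 9 alternative analyses. That of Pde1c held in 4, those of Pde3b and Gucy1b1 in 5 and that of Adcy7 in 6. The 9 are not separate checks, since those that left out a library also lacked the term for labelled sex.

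The calls of Prkar1b and Adcy5 were lost without 5-month females (adjusted p = 0.0523 and 0.0821) or 22-month females (0.0556 and 0.0918), and that of Adcy5 also without 5-month males (0.102). Leaving out 1 library left 4 calls without the library labelled 5-month males, 4 without 5-month females, 6 without 22-month males and 3 without 22-month females. The lactotrope-like nuclei of the 5-month libraries lay almost wholly in cluster 8, with 2153 and 2487 nuclei, and those of the 22-month libraries in clusters 20, 21 and 22. Genes upstream of the enzymes were called in the same comparison: Gnas, the gene of Gs, at -0.96 (SE 0.17), Gnai1 at -0.75 (SE 0.18) and Drd2 at -0.69 (SE 0.11) were lower, and the PKA inhibitor Pkia was higher at 0.85 (SE 0.13). Of 9 G proteins and regulators 3 were called lower and 1 higher, and of 6 transcription factors and coactivators 2 were called higher, Crem at 0.42 (SE 0.12) and Atf1 at 0.54 (SE 0.12).

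In gonadotrope-like nuclei, 6 of 43 members were called, all higher in the 22-month libraries, beside 7.12% of all genes called in either direction (4.74% higher and 2.38% lower). Adcy8 rose from 11.7 and 4.38 CPM to 306.5 and 651 CPM, a log2 fold of 5.91 (SE 0.44, adjusted p = 0.000213). It was counted in 4.33%, 1.95%, 56.2% and 75.3% of gonadotrope-like nuclei, and in 2.28%, 1.04%, 35.3% and 52.2% after thinning to 2000 counts. In lactotrope-like nuclei the unthinned shares were 0.232%, 0.161%, 0.369% and 0.328%. Adcy2 was at 5.87, 5.84, 80.4 and 46.4 CPM (3.52, SE 0.32, adjusted p = 0.000627). Pde7b was at 13.2, 9.50, 56.9 and 69.3 CPM (2.58, SE 0.29), Pde3b at 4.40, 5.11, 22.1 and 16.4 CPM (2.11, SE 0.42) and Prkar2b at 6.6, 7.30, 24.0 and 19.6 CPM (1.76, SE 0.37). Pde4d was at 272, 294, 525 and 501 CPM (0.98, SE 0.17). For each of these 6 genes the pairs of libraries did not overlap.

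The gonadotrope-like nuclei of the 5-month libraries lay in cluster 11 (298 and 257 nuclei) and those of the 22-month libraries in cluster 23 (295 and 164), which had been separated without these genes. The summed lactotrope markers rose alongside in these nuclei, from 6378 and 3019 CPM to 34610 and 14150 CPM. Agtr1b was at 0 and Prl made up nearly all of the sum. The part of lactotrope transcripts in the differences of Pde7b, Pde3b and the other members called was not tested. Without the library labelled 5-month females no call remained, and Adcy8 was at an adjusted p of 0.0579. Without 5-month males 1 remained, Adcy8 (adjusted p = 0.0404). Without 22-month males there were 7 calls and without 22-month females 11. Of other genes, Nos1, the neuronal nitric oxide synthase, was called at 5.68 (SE 0.49), while Adcyap1r1 was lower (-1.07, SE 0.20).

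**Figure D5:**
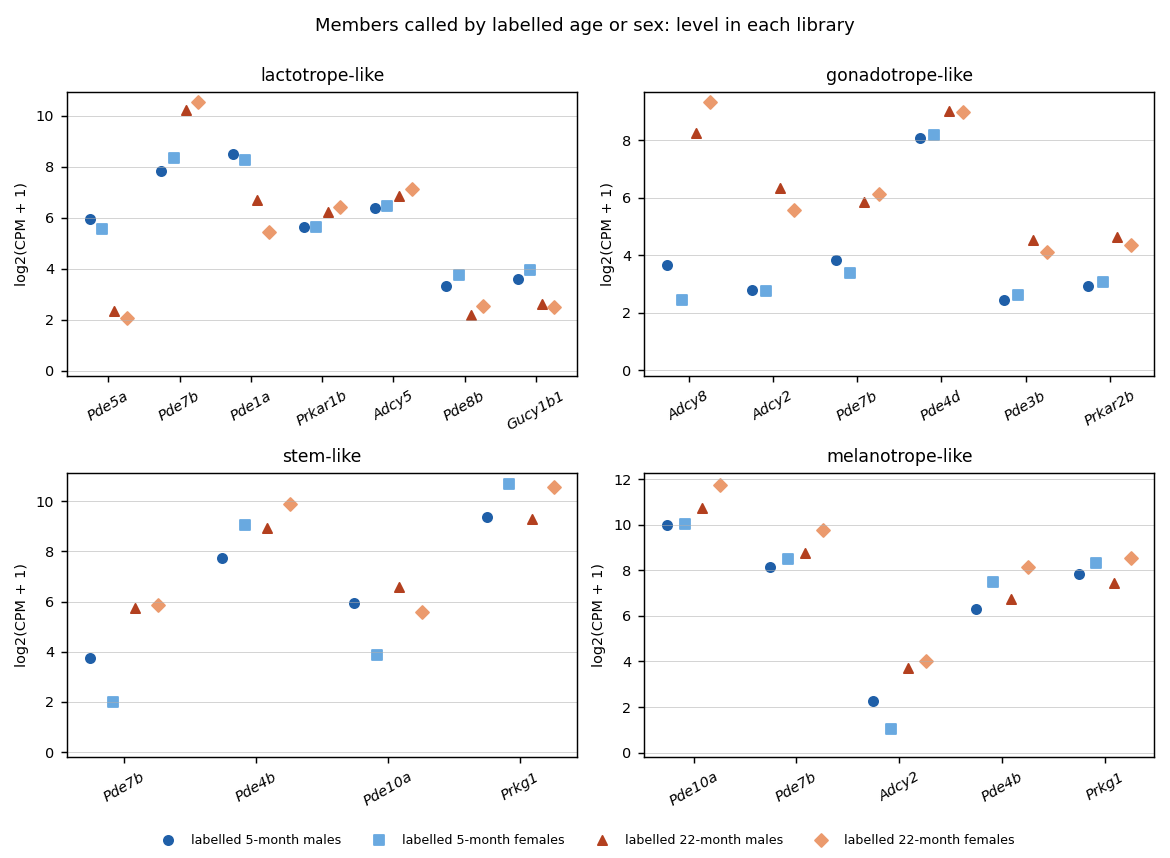
Levels as log2(CPM + 1) (vertical axis) of members called by labelled age or labelled sex (horizontal axis) in lactotrope-like, gonadotrope-like, stem-like and melanotrope-like nuclei, with 1 point per library. Pde5a and Pde1a in lactotrope-like nuclei lie lower in both 22-month libraries, and Adcy8 and Adcy2 in gonadotrope-like nuclei lie higher in both.

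In stem-like nuclei, 3 of 35 members were called, all higher in the 22-month libraries, beside 5.93% of all genes called in either direction (3.09% higher and 2.84% lower). Pde7b was at 12.5, 3.01, 53.3 and 56.9 CPM (log2 fold 2.68, SE 0.38, adjusted p = 1.44e-08). It was counted in 2.04%, 0.855%, 7.2% and 10% of stem-like nuclei. The summed lactotrope markers in these nuclei were 10850, 5320, 69250 and 25510 CPM, again with Agtr1b at 0, and their part was not tested. Pde4b was at 211, 529, 493 and 952 CPM (0.98, SE 0.18), so the 5-month and 22-month libraries overlapped. Pde10a, at 60.1, 13.6, 94.1 and 46.4 CPM, overlapped as well (0.91, SE 0.27). Without 5-month females no member was called (Pde7b, adjusted p = 0.0506), and without 5-month males 1, Pde7b (adjusted p = 0.0248). Pde4b was lost without 22-month females (0.43, adjusted p = 0.432) and Pde10a without 22-month males (0.21, adjusted p = 0.843).

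Somatotrope-like nuclei had 5 calls among 50 members, all higher in the 22-month libraries, beside 8.5% of all genes (5.34% higher and 3.16% lower). Pde7b was at 343, 392, 691 and 1113 CPM (1.30, SE 0.15) and Akap6 at 23.6, 52.2, 66.6 and 114 CPM (1.34, SE 0.14), and for both the pairs of libraries did not overlap. The summed lactotrope markers in these nuclei were 6971, 4064, 51860 and 20560 CPM, and their part in the differences of the members called was not tested. Pde3b (0.62, SE 0.16), Akap7 (0.49, SE 0.13) and Adcy5 (0.48, SE 0.13) were also called. Prkar2b, so high in this class, was at 133, 120, 126 and 132 CPM and was not called. Without the library labelled 5-month males or 22-month females no member was called (Pde7b, adjusted p = 0.325 and 0.189). Without 22-month males 1 was called, Pde7b (0.0271), and without 5-month females 2, among them Akap6 (0.0405). Most of these nuclei of the 5-month libraries lay in clusters 0, 1 and 2, and most of the others in clusters 3 and 12.

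Melanotrope-like nuclei had 3 calls among 45 members (1.45% of all genes, 0.926% higher and 0.527% lower), Pde10a (1.25, SE 0.21), Pde7b (0.96, SE 0.18) and Adcy2 (2.54, SE 0.53), all higher in the 22-month libraries. Pde10a was at 1029, 1041, 1711 and 3430 CPM. Pde7b was at 284, 365, 435 and 869.5 CPM, and Adcy2 at 3.81, 1.03, 12.1 and 15.2 CPM. The summed lactotrope markers were 6994, 3747, 40820 and 21060 CPM, and their part in the differences of the members called was not tested. The pairs of libraries did not overlap in any of the 3. No member was called without the library labelled 5-month males, 5-month females or 22-month females (Pde10a, adjusted p = 0.667, 0.272 and 0.676), and without 22-month males Pde10a (0.0175) and Pde7b (0.0261) were called. Adcy2 was called in none of the 4 fits (adjusted p = 0.0578 to 0.25).

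Corticotrope-like nuclei had 2 calls among 36 members (2.62% of all genes). The summed lactotrope markers in these nuclei were 7917, 3776, 50630 and 20050 CPM, and their part was not tested. Prkg1 was at 11.8, 19.3, 81.1 and 64.7 CPM (2.34, SE 0.36, adjusted p = 2.06e-08) and Akap6 at 6.45, 4.83, 19.0 and 84.1 CPM (2.85, SE 0.49). Both pairs were apart, with Akap6 resting largely on the library labelled 22-month females, without which it was not called (1.73, adjusted p = 0.591). Without 22-month males 5 members were called.

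Genes that cAMP induces through CREB were highest in the library labelled 5-month males in 8 of the 11 classes. The summed level of 8 such genes, among them Fos and the nuclear receptor genes Nr4a1, Nr4a2 and Nr4a3, was 1476, 156, 130 and 178 CPM in melanotrope-like nuclei, 867, 46.7, 33.4 and 56.3 CPM in gonadotrope-like nuclei and 875, 253, 115 and 112 CPM in corticotrope-like nuclei. In endothelial-like (145, 201, 99.5 and 111 CPM), somatotrope-like (42.6, 49.5, 29.2 and 39.7 CPM) and pituicyte-like nuclei (63.0, 68.8, 50.2 and 59.0 CPM) the library labelled 5-month females was the highest. Of the library labelled 5-month males, 281 of 371 melanotrope-like nuclei lay in cluster 7, which Fos and Junb led. Of the genes tested, 4 of 5 were called lower in the 22-month libraries in corticotrope-like nuclei (0.845% of all genes), 2 of 4 in gonadotrope-like (2.38%), 2 of 7 in melanotrope-like (0.527%) and 2 of 8 in lactotrope-like nuclei (11.4%). These genes also answer to handling and to other signals, and the part of none of these was tested.

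Whether the effect of labelled age in 1 class differed from the mean effect of the other 5 was tested over 14454 genes, 49 of them members, with a call at an adjusted p under 0.05 and a log2 difference of 1 or more. This test was added after the data were seen. In lactotrope-like nuclei 4 members were called, beside 5.86% of all genes, and in gonadotrope-like nuclei 1, beside 1.57%. No member was called in stem-like (0.498% of all genes), somatotrope-like (0.609%), corticotrope-like (0.00692%) or melanotrope-like nuclei (0.166%).

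Labelled sex was tested in 4 classes with labelled age as a term. In stem-like nuclei, 3 of 35 members were called beside 1.16% of all genes (0.65% higher and 0.512% lower in the libraries labelled female). Prkg1 was at 668, 1657, 633 and 1496 CPM, so both libraries labelled female stood above both labelled male (log2 fold 1.22, SE 0.18, adjusted p = 1.88e-07). Pde4b was called higher in the libraries labelled female (1.07, SE 0.18) and Pde10a lower (-1.39, SE 0.27), and for both the labelled sexes were apart in the values given above. Without 5-month females or 22-month females no member was called, without 5-month males 1, Pde10a (adjusted p = 0.00806), and without 22-month males 1, Pde4b (0.0339). Prkg1 was at an adjusted p of 0.503 to 0.732 in these fits.

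Somatotrope-like nuclei had 3 calls among 50 members (1.64% of all genes). Pde1a was at 64.5, 115, 73.0 and 149 CPM (0.89, SE 0.13) and Pde10a at 1950, 1169, 1627 and 1121 CPM (-0.68, SE 0.14), each with the labelled sexes apart. Akap6 was called at 0.91 (SE 0.14), with overlapping libraries. Melanotrope-like nuclei had 2 calls among 45 (0.822% of all genes, 0.678% higher in the libraries labelled female): Pde4b, at 78.8, 180, 105 and 283 CPM (1.36, SE 0.16), and Prkg1, at 229, 321, 171 and 376 CPM (0.86, SE 0.18), both higher in both libraries labelled female. In lactotrope-like nuclei edgeR called 0 of 55 members (0.881% of all genes), with 8 higher and 2 lower at an unadjusted p under 0.05, and DESeq2 called 0. Without 1 library and the term for labelled age, log2 folds in somatotrope-like nuclei ran from 0.67 to 1.08 for Pde1a. They ran from 0.14 to 1.80 for Akap6 and from -0.79 to -0.57 for Pde10a. With all 4 libraries but without that term, no member was called in somatotrope-like, stem-like or melanotrope-like nuclei. In melanotrope-like nuclei no member was called without 5-month females or 22-month females (Pde4b, adjusted p = 0.62 and 0.956), and Pde4b was also lost without 5-month males (0.139), where the 1 member called was lower in the libraries labelled female. Pde4b was called without 22-month males (0.00435), and Prkg1 was called in none of the 4 fits (adjusted p = 0.389 to 0.956).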

How the data were processed

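The deposited files hold counts of unique transcripts per gene and barcode, made with Cell Ranger 7.0.1 per the file headers, against mm10 per the submitters' processing notes. The treatment of intronic reads was not given in the sources used here. Gene positions come from GENCODE M21, and promoter sequences from RefSeq (GRCm38.p6).

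Barcodes with under 500 genes, with over 5% mitochondrial counts or called doublets by Scrublet were removed. The automatic doublet thresholds differed between libraries, so their median was used for all. Nuclei were clustered in scanpy 1.11.5 (3000 variable genes without the 62 members, hormone genes, sex-check genes or mitochondrial genes; 30 principal components; Leiden at resolution 1) with no correction between libraries. Clusters were named from marker lists. The doublet threshold and the naming score were settled after the data were seen, and 1119 nuclei in unnamed clusters were left out. Most of these came from the 22-month libraries. In the order of the libraries they numbered 1, 3, 270 and 422 (cluster 5), 6, 64, 101 and 74 (cluster 18) and 1, 0, 177 and 0 (cluster 24). The part of this in the differences of labelled age was not tested.

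Counts were summed per class and library and tested with edgeR 4.0.16 (quasi-likelihood test, TMM factors, its filter on low counts, Benjamini-Hochberg adjustment over all genes tested). Class comparisons had library as a block and left 30 residual degrees of freedom; those of labelled age and sex left 1. Standard errors are approximate, the size of the log2 fold over the square root of F. The alternatives were DESeq2 1.42.0, RLE factors, no filter, stricter doublet removal, a model without a term and leaving out each library. The term left out was the library block for classes, and the other label for labelled age and sex. Fits of labelled age or sex without a library also lacked the term for the other label. Clustering with the members kept was an alternative for the class comparison and the pairs of classes only, not for labelled age or sex. All tests were first run on simulated data with known changes.

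The text names, per class, the 4 members with the largest fold among those called and higher in every library; for pairs of classes the 3 largest in each direction; for labelled age and sex up to 6 called members by adjusted p and up to 4 more; and always the PKA, PKG, soluble guanylyl cyclase and Pde4 genes. Other names were chosen after their values were seen. The members and lists were chosen with earlier results of these data known.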

Additional observations from a re-analysis of the deposited data

Results flagged for a closer look

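In a fit over 6 classes with an interaction of class and labelled age, added after the data were seen, 5 members differed in 1 class from the mean effect of the other 5 classes at an adjusted p under 0.05 and a log2 difference of 1 or more (edgeR's quasi-likelihood test). Adcy2 differed in gonadotrope-like nuclei by 2.95, where 1.57% of all genes were called. In lactotrope-like nuclei, where 5.86% of all genes were called, Pde5a differed by -3.92, Pde1a by -2.21, Pde8b by -1.62 and Gucy1b1 by -1.21. Their adjusted p-values were 0.00226 for Adcy2, 7.02e-06 for Pde5a, 0.00298 for Pde1a, 0.000624 for Pde8b and 0.0178 for Gucy1b1. Pde7b, called by labelled age in 5 of the 6 classes one by one, was called in none of these tests, and its smallest adjusted p was 0.062, in corticotrope-like nuclei. The difference of Adcy8 in gonadotrope-like nuclei was 5.18 (SE 1.42, adjusted p = 0.0674) and was not called. Chosen after their values were seen, Pde7b and Adcy8 are given here for their calls within single classes.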

How the results depend on the processing

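Over 939 alternative values of the results named, 746 kept their direction and their side of the threshold, 192 lost the call and 1 reversed. The reversed one was Pde10a by labelled age in stem-like nuclei. It was at -0.51 under stricter doublet removal, which leaves out the 25% of nuclei with the highest doublet scores (adjusted p = 0.498). Among classes and pairs of classes, calls were lost only for Pde2a in macrophage-like nuclei (6 of 10 alternatives) and Pde3b in pituicyte-like nuclei (1 of 10). All other lost calls were those of labelled age and sex. The class comparison gave 34 to 44 called members under its alternatives and the pairs of classes 11 to 14 and 12 to 15 (35, 13 and 12 with no replicate block, which here is the library), all within 1.5 times. Calls by labelled age changed when a library and, with it, the term for labelled sex were left out. Leaving 1 out gave 0 to 11 calls in gonadotrope-like nuclei, 3 to 6 in lactotrope-like, 1 to 5 in corticotrope-like, 0 to 3 in stem-like as in melanotrope-like and 0 to 2 in somatotrope-like nuclei. By labelled sex it gave 0 to 2 in melanotrope-like nuclei, 0 to 1 in stem-like and 0 in somatotrope-like ones. Fewer samples enter these fits, which also lack the term for the other label. The parts of the library and of the term were not told apart.

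For labelled age without the term for labelled sex, calls numbered 8 in lactotrope-like nuclei, 3 in gonadotrope-like, 1 in stem-like, 1 in corticotrope-like, 0 in somatotrope-like and 0 in melanotrope-like nuclei. DESeq2 called 9 in lactotrope-like nuclei, 2 in somatotrope-like, 1 in melanotrope-like and 0 in corticotrope-like ones. With no filter on low counts there were 12 in gonadotrope-like nuclei, 9 in somatotrope-like and 6 in melanotrope-like ones, and with stricter doublet removal 2 in somatotrope-like and 0 in corticotrope-like nuclei. RLE factors gave 5 in melanotrope-like nuclei. For labelled sex without the term for labelled age there were 0 in stem-like, somatotrope-like and melanotrope-like nuclei. With no filter there were 5 in somatotrope-like, 7 in lactotrope-like and 8 in melanotrope-like nuclei, with stricter doublet removal 1 in somatotrope-like, by DESeq2 1 and with RLE factors 5 in melanotrope-like nuclei. The cause was not tested. Labelled age and sex had no replicate block, since each labelled group holds 1 library. Depth limits the rare classes most: 1 count was 11.1 CPM in the shallowest class sum.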
